A study of Mus musculus with 2 samples.

Results

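The AP-1 subunits Fos, Fosb, Jun, Junb, Jund and Atf3, the zinc finger factor Egr1 and the orphan nuclear receptors Nr4a1, Nr4a2 and Nr4a3 were followed across the immune cells of TSA tumors. These 10 genes were chosen by symbol, out of 27998 genes in the count tables, and all 10 were found. TSA is a mouse mammary adenocarcinoma cell line grown here under the skin of Balb/c mice, so the lesion is a transplanted tumor and not one that arose in the mammary gland. One group of mice was left untreated and the other received nicotinamide (NAM), the amide form of vitamin B3, at 0.5% in the drinking water for 10 days. The CD45+ cells of 3 mice per group were pooled before capture, so each group is 1 library. No test between mice was therefore possible, and every interval below is a 95% counting interval that leaves out the variation between mice and between captures.

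AP-1 is a family of leucine zipper dimers in which Fos proteins pair with Jun proteins, while Jun proteins also pair among themselves and with Atf3. Fos, Fosb, Jun, Junb, Atf3, Egr1 and the Nr4a genes are immediate early genes, transcribed within minutes of a stimulus without new protein synthesis, and Jund is the more constitutive Jun subunit. In macrophages these genes respond to growth factor, Toll-like receptor and stress signals, and in T cells they respond to antigen receptor signaling. They are also well known to be switched on while tissue is being dissociated into single cells, a step that both groups went through here.

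The untreated library held 2922 cells and the NAM library 3276 cells, with medians of 9056 and 9128 UMIs per cell. Results are given for 11 classes of cells, set by UMIs of marker genes, none of which belongs to the 10 factors, and 86.1% of the untreated and 84.4% of the NAM cells passed a gate. Macrophages with complement C1q transcripts numbered 1932 and 2117. Of their subsets, 3 are described: Vcam1 Dnase1l3 cells (449 and 487), cycling cells (236 and 229) and cells in no subset, called the other macrophages (700 and 788). A further subset counts only within all macrophages. The remaining classes were Ly6c2 monocytes (249 and 286), Xcr1 Clec9a dendritic cells (30 and 32), Ccr7 Fscn1 dendritic cells (12 and 14), Cd209a dendritic cells (37 and 41), CD8 T cells (93 and 144), regulatory-like T cells with Foxp3, Ikzf2, Ctla4 or Il2ra (76 and 69), other T cells (19 and 28) and NK cells (67 and 34). The markers of B cells were at or below 21.6 CPM (UMIs of the gene for every 1000000 UMIs of the class) in macrophages, and those of NK cells at or below 4.28 CPM. The macrophage gate admitted no cell with a UMI of the NK marker Ncr1, so the NK value is partly set by it. Summed monocyte markers stood higher, at 336 CPM in untreated and 322 CPM in NAM macrophages, and neutrophil markers at 65.8 and 75.1 CPM. The summed hemoglobin transcripts Hba-a1 and Hbb-bs differed between libraries, at 15.4 CPM in untreated and 296 CPM in NAM macrophages and at 14.4 and 6432 CPM in CD8 T cells. All 19 calls by class described below were also made without the cells with 10 or more hemoglobin UMIs, and without the 11 barcodes that occur in both libraries.

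Where a promoter sequence is shown, it is the stretch of 250 bases before the RefSeq transcription start in GRCm38.p6, 5′ to 3′ on the strand of the gene. The 4 stretches below were chosen because Jun was the factor with the widest difference between libraries in macrophages, Fos is its main partner, and Nr4a1 and Nr4a2 stand for the receptor family whose stretches held most TGACG matches. Capitals mark matches, on either strand, to TGACATCA (the variant AP-1 site bound by Jun with Atf2), to TGACG (the first bases of the cyclic AMP response element TGACGTCA) and to TATAAA (the TATA box).
Jun, chr4:95052223-95052472, minus strand: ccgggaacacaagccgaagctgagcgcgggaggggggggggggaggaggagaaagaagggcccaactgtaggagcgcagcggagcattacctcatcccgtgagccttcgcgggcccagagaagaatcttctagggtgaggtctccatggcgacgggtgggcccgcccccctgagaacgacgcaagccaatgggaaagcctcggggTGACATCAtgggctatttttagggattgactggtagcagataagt
Fos, chr12:85473640-85473889, plus strand: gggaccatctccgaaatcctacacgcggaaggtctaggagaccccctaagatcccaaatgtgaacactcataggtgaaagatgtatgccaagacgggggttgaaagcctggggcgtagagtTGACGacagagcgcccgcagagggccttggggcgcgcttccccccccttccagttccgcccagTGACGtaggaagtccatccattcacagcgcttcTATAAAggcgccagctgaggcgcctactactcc
Nr4a1, chr15:101266596-101266845, plus strand: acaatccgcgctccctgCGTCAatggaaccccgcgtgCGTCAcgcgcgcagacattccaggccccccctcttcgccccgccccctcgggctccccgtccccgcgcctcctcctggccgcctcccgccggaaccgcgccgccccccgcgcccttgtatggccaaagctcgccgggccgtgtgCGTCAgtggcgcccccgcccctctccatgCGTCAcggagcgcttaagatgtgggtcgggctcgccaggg
Nr4a2, chr2:57124004-57124253, minus strand: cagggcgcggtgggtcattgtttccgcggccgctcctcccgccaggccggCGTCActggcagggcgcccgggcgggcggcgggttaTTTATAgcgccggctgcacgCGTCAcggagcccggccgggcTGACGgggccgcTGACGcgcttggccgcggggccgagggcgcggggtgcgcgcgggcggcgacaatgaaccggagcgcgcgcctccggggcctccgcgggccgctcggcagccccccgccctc

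The Jun stretch held 1 TGACATCA, at base -45 from the start, a motif present in 2.93% of 32851 RefSeq promoter stretches of this length. The Fos stretch held 2 TGACG matches, at -129 and -66, and a TATA box at -33. Each Nr4a stretch held 4 TGACG matches, Nr4a3 included, while 0.137% of all stretches held as many. The matches in Nr4a2 lie at -200, -144, -123 and -111, and those in Nr4a1 at -233, -213, -69 and -40. At least 1 TGACG occurred in 17.8% of all stretches, and these Nr4a promoters are rich in G and C (63.6% to 80%), which that share does not take into account. Full TGACGTCA sites, AP-1 sites of the form TGACTCA, CArG boxes (the serum response factor site) and heat shock elements were searched too and had no match in the 9 stretches that could be read, against 1.55%, 4.46%, 1.47% and 0.466% of all stretches. This holds for the 250 bases searched only, and Egr1 was not among the stretches. Sites further from the start, or of Egr1, were not looked for. The start used for Jun, Fos and Nr4a2 is also the start of the GENCODE gene, whereas the Nr4a1 start lies 12577 bases inside the GENCODE gene and that of Nr4a3, not printed, 152 bases inside. Of the other stretches, that of Atf3 starts from a site 34706 bases inside the gene and that of Jund from a site before it (position -1210 from the gene start), while those of Fosb and Junb lie within 30 bases of the gene start. The stretches are therefore not in each case the promoter of the GENCODE gene. No sequence of Egr1 is shown.

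Jun (chr4:95049034-95052222, minus strand), Junb (chr8:84974484-84978718, minus strand) and Jund (chr8:70698949-70700616, plus strand) each consist of 1 exon without introns. All 3 overlap a gene on the opposite strand (Junos, Prdx2 and Gm11175), and as the use of strand in counting is not stated in the sources, reads from that strand cannot be told apart with certainty. Fos (chr12:85473890-85477273, plus strand) and Fosb (chr7:19302696-19310051, minus strand) have 4 exons each, as does Atf3 (chr1:191170296-191218039, minus strand), which overlaps Gm24748 on the other strand. Nr4a1 (chr15:101254269-101274795, plus strand), Nr4a2 (chr2:57106830-57124003, minus strand) and Nr4a3 (chr4:48045153-48086447, plus strand) code for the receptors, and the principal transcripts of Nr4a2 and Nr4a3 have 8 exons. All coordinates are in GRCm38, to which mm10 corresponds.

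The first question was in which cells each factor is found. Fos, Fosb, Jun, Atf3 and Egr1 were called lower than in macrophages in CD8 T, regulatory-like T and NK cells, Junb and Jund were present in every class, and Nr4a2 and Nr4a3 were called higher than in macrophages in 4 classes. Fos, the main partner of the Jun proteins, stood at 1449 CPM in untreated and 1776 CPM in NAM Ly6c2 monocytes. Its level in all macrophages was 1062 and 1229 CPM, and in NK cells only 78.7 and 92.6 CPM. Monocytes were above every other class in both libraries, and 2 of 10 neighbors in the order of Fos levels overlapped between libraries. Fosb, a second Fos subunit, was highest in Cd209a dendritic cells at 335 and 331 CPM, against 189.8 and 192 CPM in macrophages. Among classes with 20 or more Fosb UMIs, CD8 T cells stood at 61.5 and 37.1 CPM.

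**Figure D1:**
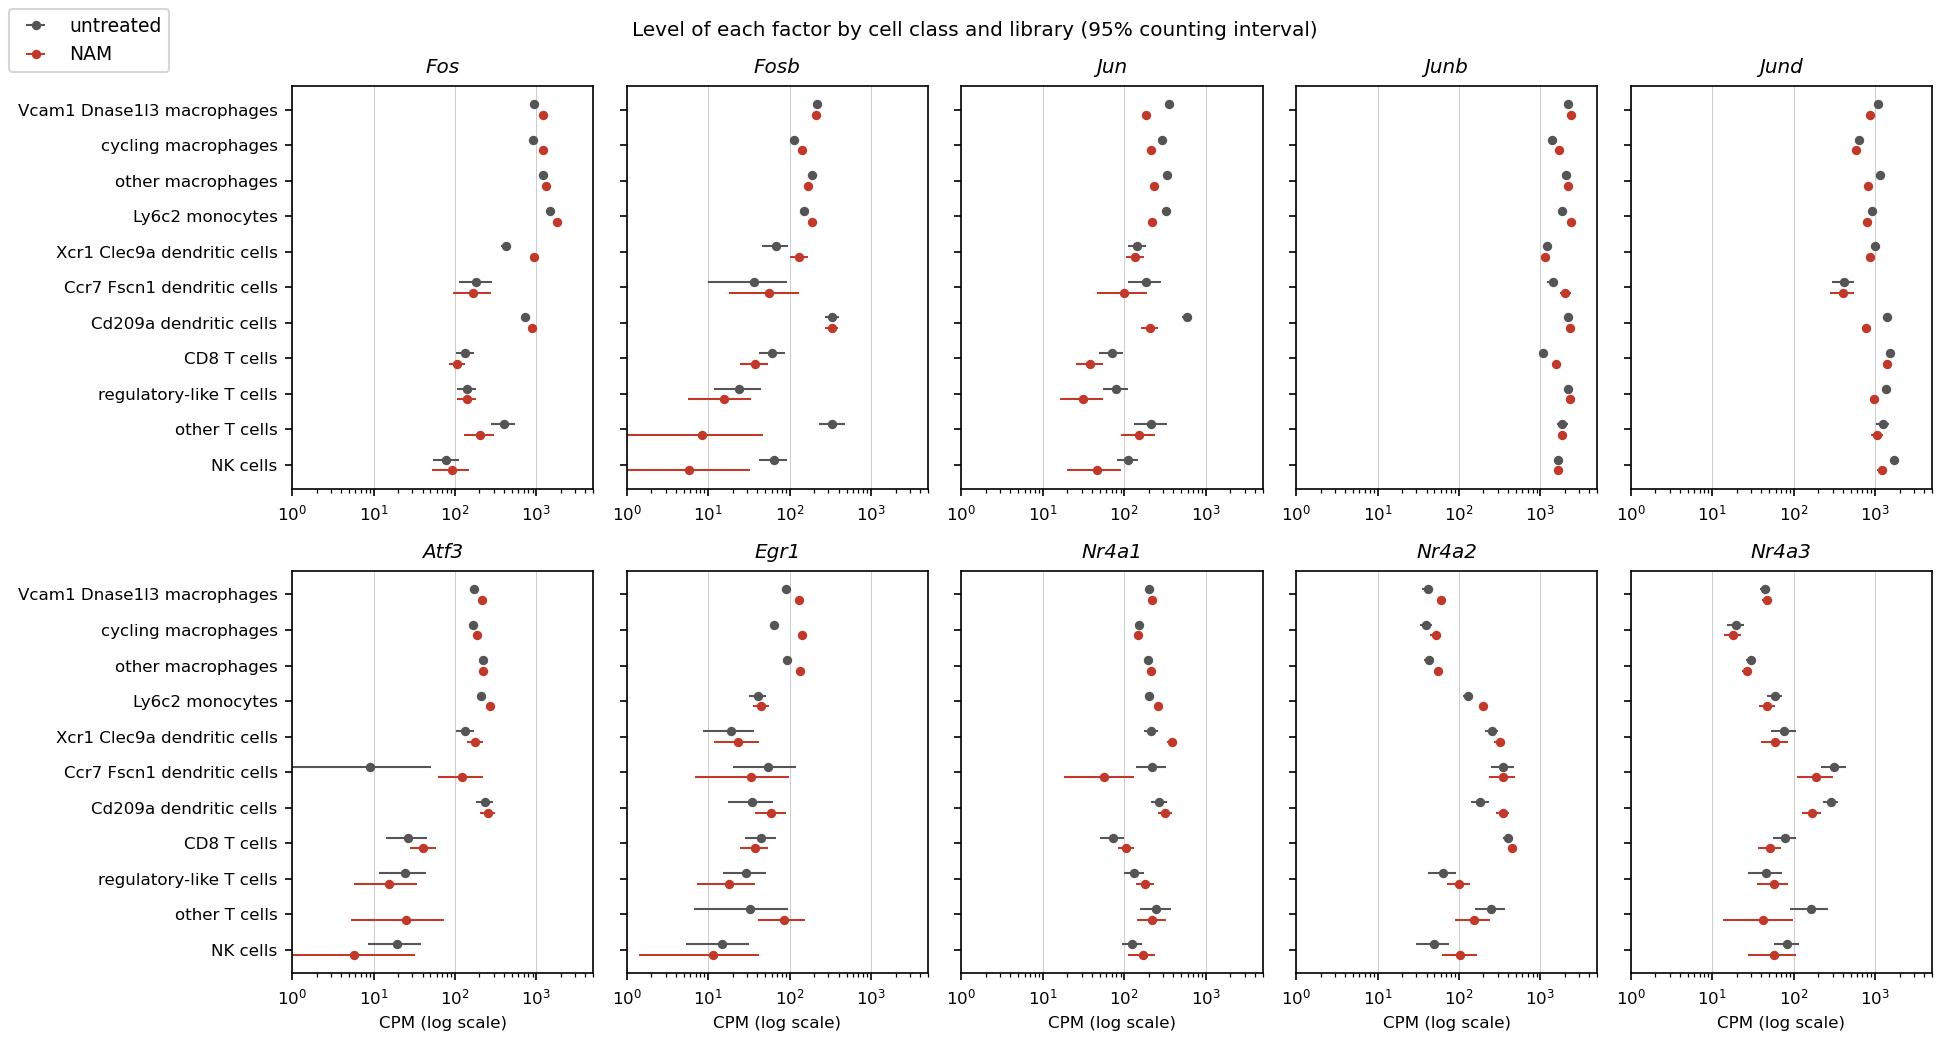
Level of each of the 10 factors (panels) in CPM on a logarithmic axis, by cell class, for the untreated (grey) and the NAM (red) library, with 95% counting intervals cut at 1 CPM and levels of 0 not drawn. By the mean of both libraries, Fos runs from 85.7 CPM in NK cells to 1613 CPM in monocytes and Junb from 1179 to 2300 CPM, with single Junb values from 1083 to 2395 CPM.

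The 3 Jun genes had different distributions. Jun was highest in Cd209a dendritic cells (588 and 205 CPM) and in the other macrophages (338 and 234 CPM), and lowest in CD8 T cells (69.8 and 38.4 CPM), by the mean of the libraries. The other T cells (215 and 152 CPM) were above Xcr1 Clec9a dendritic cells (144 and 135 CPM). In NAM alone the highest level was that of the other macrophages (234 CPM) and the lowest that of regulatory-like T cells (31.0 CPM). In the order of Jun levels, 9 of 10 neighbors overlapped. Junb, which often opposes Jun in AP-1 dimers, ranged from 1209 and 1149 CPM in Xcr1 Clec9a dendritic cells to 2205 and 2395 CPM in Vcam1 Dnase1l3 macrophages by the mean of the libraries, and in untreated alone it was lowest in CD8 T cells (1083 CPM). The means make it the most evenly spread of the 10 factors by the ratio of its highest to its lowest class, and 9 of 10 neighbors overlapped. Jund was higher in lymphocytes than in macrophages, at 1694 and 1222 CPM in NK cells and 1533 and 1382 CPM in CD8 T cells, against 1043 and 807 CPM in macrophages. Its lowest levels were in Ccr7 Fscn1 dendritic cells (411 and 402 CPM) and cycling macrophages (630 and 589 CPM), and 7 of 10 neighbors overlapped.

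Atf3, a stress-inducible repressor that pairs with Jun, was found at 234 and 254 CPM in Cd209a dendritic cells and at 207 and 219 CPM in macrophages. In CD8 T cells it was at 26.7 and 41.1 CPM. Egr1, which is induced through the ERK pathway, stood at 95.2 and 137 CPM in macrophages. CD8 T cells (45.1 and 37.1 CPM) were level with monocytes (40.8 and 45.0 CPM) and above Xcr1 Clec9a dendritic cells (19.1 and 23.3 CPM). The 3 macrophage classes held the top 3 places for Egr1, and 8 of 10 neighbors in the order overlapped.

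The Nr4a receptors bind DNA without a known hormone and share their response elements. By the mean of the libraries, Nr4a1 (Nur77) was highest in Xcr1 Clec9a dendritic cells at 212 and 387 CPM and Cd209a dendritic cells at 269 and 319 CPM, which overlapped, and lowest in CD8 T cells at 71.8 and 106 CPM. Nr4a2 (Nurr1) was highest in the CD8 T cells. It reached 402 and 445 CPM in CD8 T cells and 347 and 346 CPM in Ccr7 Fscn1 dendritic cells, but 45.5 and 61.5 CPM in macrophages. Nr4a3 (Nor1) peaked in Ccr7 Fscn1 dendritic cells at 310 and 190 CPM and in Cd209a dendritic cells at 284 and 168 CPM, with 33.0 and 30.7 CPM in macrophages. Within the T cells, Nr4a2 separated the CD8 cells from the regulatory-like cells, where it stood at 63.0 and 101 CPM.

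To set these differences against those of other genes, a factor was called higher or lower in a class than in all macrophages when the difference was past 1.5 fold with an interval that left out equality in both libraries. In CD8 T cells 2 of 10 factors were called higher, Nr4a2 and Nr4a3, where the share was 14.1% among genes holding at least 100 UMIs. Another 6 (Fos, Fosb, Jun, Atf3, Egr1 and Nr4a1) were called lower, against 16% of genes. The log2 ratio of CD8 T cells over macrophages for Nr4a2 was 3.14 without and 2.85 with NAM, and that for Fos -2.99 and -3.54. Regulatory-like T cells had 0 factors called higher (13.2% of genes) and 5 lower, Fos, Fosb, Jun, Atf3 and Egr1 (12.1%). In NK cells, 1 factor was called higher, Jund (7.92%), and the same 5 were called lower (9.96%). The log2 ratios of Jund in NK cells were 0.70 and 0.60. Nr4a3 stood at 1.34 and 0.91 there, with an interval of -0.15 to 1.80 in NAM, and Nr4a2 at 0.11 and 0.76, and neither was called.

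Ly6c2 monocytes had Nr4a2 and Nr4a3 called higher (2 of 10, against 6.68% of genes) and Egr1 called lower (1 of 10, against 12.3%). The log2 ratio over macrophages was 1.52 and 1.67 for Nr4a2 and -1.22 and -1.60 for Egr1. Cd209a dendritic cells had 3 factors called higher, Fosb, Nr4a2 and Nr4a3 (4.05%), and 1 lower, Egr1 (7.06%). There, the ratio was 3.11 and 2.45 for Nr4a3 and 2.01 and 2.49 for Nr4a2. Xcr1 Clec9a dendritic cells had Nr4a2 and Nr4a3 called higher (5.71%) and Jun, Junb and Egr1 called lower (13.9%). Egr1 was therefore called lower than in macrophages in each of these 6 classes, and Nr4a2 and Nr4a3 called higher in 4 of them.

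Droplets also carry free RNA, and macrophages are the largest source here. The C1q transcripts, which lymphocytes do not make, reached 2.54% of the macrophage level in untreated and 2.34% in NAM T cells, although the gate itself admitted only cells with fewer than 20 C1q UMIs, and Apoe reached 3.75% and 3.23%. Fos in CD8 T cells was at 12.6% and 8.62% of the macrophage level and Jun at 18.6% and 17.5%. These values lie above those of C1q and Apoe. Fosb and Atf3 in NAM NK cells rested on 1 UMI each, at 3.02% and 2.64% of the macrophage level, and are not distinguishable from free RNA.

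The second question was how the factors differed between untreated and NAM tumors. The Jun and Jund ratios were below 0 in all 11 classes, each with an interval that included 0 in the same 3 of them. Jund lay closer to 0 than Jun in macrophages. Most Junb, Egr1 and Nr4a2 ratios over the classes were above 0. In all macrophages Jun stood at 374 CPM (7688 UMIs) in the untreated and 219 CPM (4969 UMIs) in the NAM library. The log2 ratio of NAM over untreated was -0.77, with a counting interval of -0.82 to -0.72, and 2.01% of genes had a lower ratio. Jun was the only factor called lower in macrophages (1 of 10, with 4.07% of 9758 genes called lower), and 0 of 10 were called higher (1.01% of genes).

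**Figure D2:**
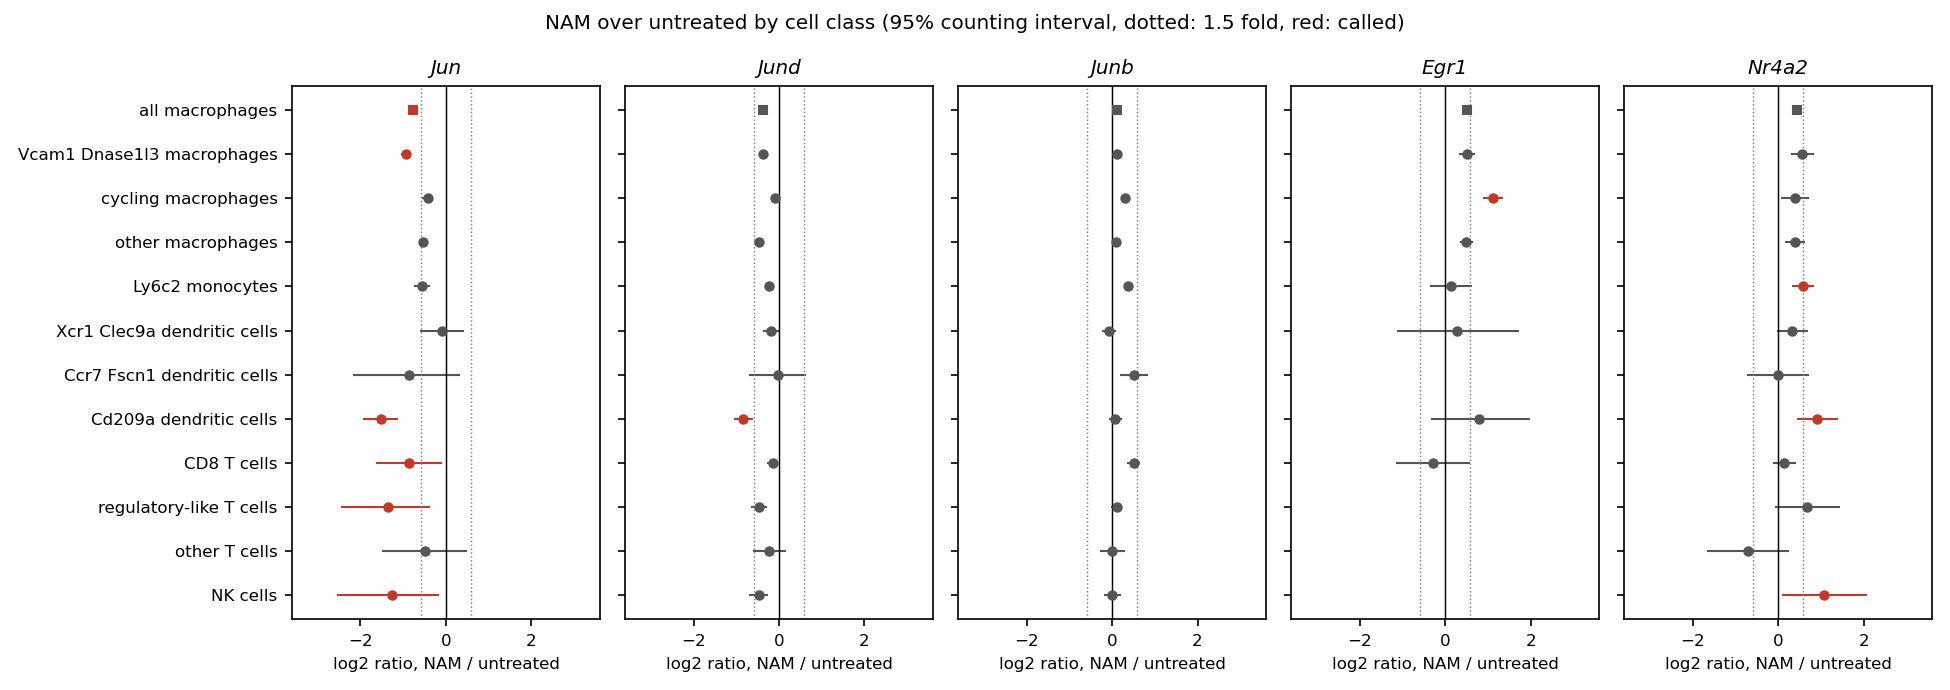
Log2 ratio of NAM over untreated for 5 factors (panels) in all macrophages (squares) and in 11 cell classes (circles), with 95% counting intervals. Dotted lines mark 1.5 fold, red marks a call, and classes with fewer than 20 UMIs are left out. All 11 Jun and all 11 Jund values lie left of 0.

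Jun was below 0 in 11 of 11 classes and called lower in 5. Vcam1 Dnase1l3 macrophages went from 353 to 185 CPM (-0.93, interval -1.05 to -0.82). In these cells Ccr7 and Fscn1 together went from 6.94 to 39.8 CPM, with a UMI in 5.57% and 5.34% of cells. The neutrophil markers went from 52.5 to 101 CPM, and the part of these shifts in the Jun value was not tested. The other macrophages (338 and 234 CPM, -0.53) and the cycling macrophages (288 and 214 CPM, -0.43) had smaller differences. The ratio in Vcam1 Dnase1l3 cells minus that in cycling cells was -0.51 (interval -0.68 to -0.33), and minus that in the other macrophages -0.40 (interval -0.55 to -0.26). Cycling minus other macrophages was 0.10, with an interval that included 0 (-0.06 to 0.27). Cd209a dendritic cells had the widest Jun difference, from 588 to 205 CPM (186 and 72 UMIs, -1.52, interval -1.93 to -1.12). The 5 cells with most Jun UMIs held 78.0% and 70.8% of them, and 1 untreated cell held 63. Other markers moved in the same class: the mature dendritic markers Ccr7 and Fscn1, the latter at 0 in both libraries, went from 452 to 108 CPM, with a UMI in 40.5% and 17.1% of cells, and the summed monocyte markers from 2828 to 1571 CPM. Their part in the Jun, Jund, Nr4a2 and Nr4a3 calls of this class was not tested.

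Lymphocytes hold few Jun transcripts, so their values are less certain. NK cells had 45 UMIs in untreated and 8 in NAM (-1.26, interval -2.55 to -0.16), regulatory-like T cells 33 and 12 (-1.37, interval -2.45 to -0.38) and CD8 T cells 34 and 29 (-0.86, interval -1.63 to -0.10). The CD8 value shrank to -0.42, and was not called, once the 5 cells richest in Jun were left out of each library. In regulatory-like T cells the Cd209a dendritic markers went from 58 UMIs (141 CPM) to 0 and the neutrophil markers from 17.0 to 272 CPM. In CD8 T cells the Cd209a dendritic markers went from 61.5 to 10.6 CPM and the NK markers from 492 to 268 CPM, and in NK cells the monocyte markers from 2651 to 1905 CPM. Their part in the Jun values was not tested. The NK value was -0.92 and not called under stricter gates, and the regulatory-like value -0.91 and not called with each cell weighted equally. Ly6c2 monocytes lay just under the size for a call, with 325 and 221 CPM (-0.56, interval -0.75 to -0.36). In 3 classes the interval included 0, at -0.60 to 0.43 in Xcr1 Clec9a dendritic cells, -2.18 to 0.34 in Ccr7 Fscn1 dendritic cells and -1.50 to 0.50 in the other T cells.

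Jund, the constitutive subunit, was at 1043 CPM in untreated and 807 CPM in NAM macrophages, a log2 ratio of -0.37 (interval -0.40 to -0.34) that lies below the size for a call. It was below 0 in 11 of 11 classes as well, with values from -0.83 in Cd209a dendritic cells, the 1 class where it was called (1393 and 781 CPM), to -0.03 in Ccr7 Fscn1 dendritic cells. NK cells (-0.47), regulatory-like T cells (-0.47) and the other macrophages (-0.47) followed. The interval included 0 in Xcr1 Clec9a dendritic cells (-0.38 to 0.01), Ccr7 Fscn1 dendritic cells (-0.71 to 0.63) and the other T cells (-0.60 to 0.15). Under stricter gates the Cd209a value was -0.48 and not called.

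Junb went the other way by a little. Its log2 ratio in macrophages was 0.13 (1961 and 2143 CPM, interval 0.11 to 0.15), and it was above 0 in 10 of 11 classes with 0 called. The largest Junb values were in CD8 T cells, from 1083 to 1540.5 CPM (0.51, interval 0.36 to 0.66), in Ccr7 Fscn1 dendritic cells (0.51, interval 0.20 to 0.83) and in monocytes (0.37, interval 0.31 to 0.44). The 3 Jun genes thus did not move together, and the levels of Jun and Junb in NAM lay on opposite sides of their untreated levels in 10 of the 11 classes, intervals that include 0 among them.

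**Figure D3:**
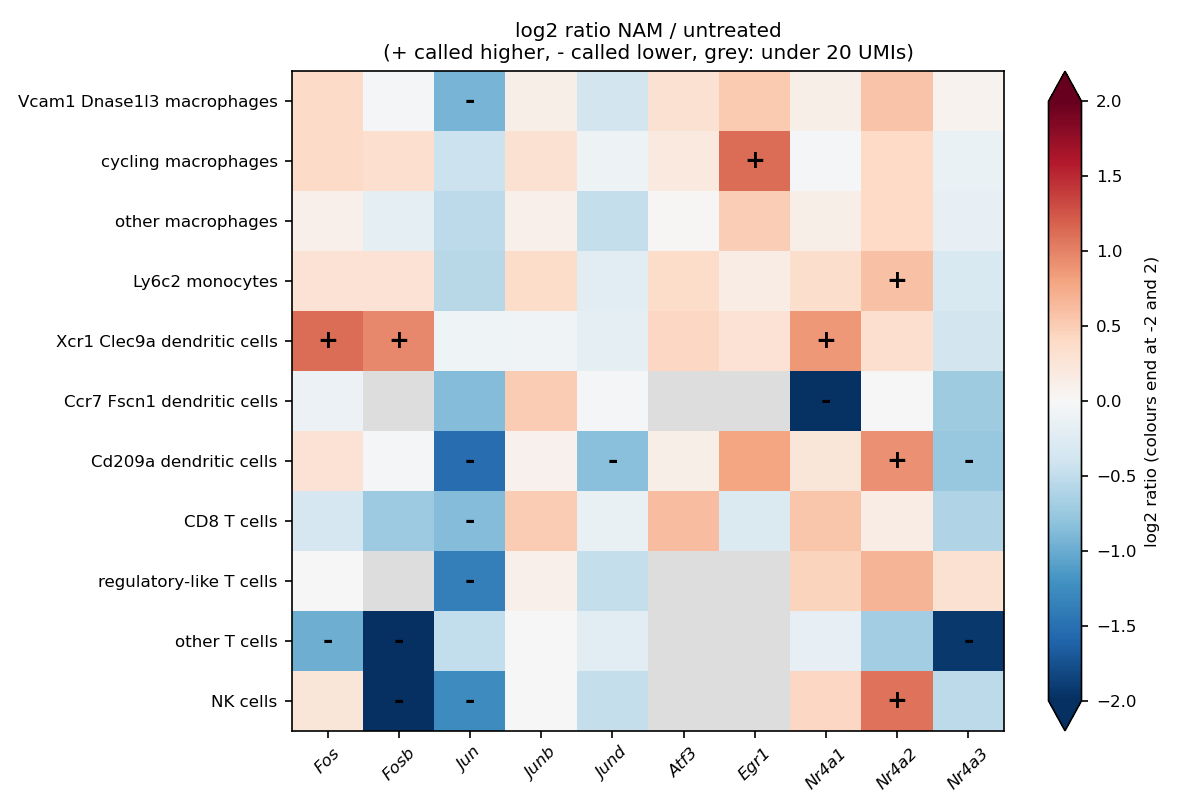
Log2 ratio of NAM over untreated for the 10 factors (columns) in 11 cell classes (rows), blue for lower and red for higher in NAM, with colors that end at -2 and 2. Signs mark the 7 calls higher and 12 calls lower among 100 counted pairs, and grey cells hold fewer than 20 UMIs. The Jun and Jund columns are blue throughout.

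Fos was at 1062 and 1229 CPM in macrophages (0.21, interval 0.18 to 0.24), with the larger ratios in Vcam1 Dnase1l3 and cycling cells (0.38 in both) and a smaller one in the other macrophages (0.10). Xcr1 Clec9a dendritic cells went from 426 to 923 CPM (201 and 436 UMIs, 1.12, interval 0.87 to 1.37), the 1 class where Fos was called higher. Those UMIs came from 30 and 32 cells, and the 5 cells with most Fos UMIs held 54.7% and 58.9% of them. In the same cells Ccr7 and Fscn1 together went from 878 to 108 CPM (a UMI in 43.3% and 15.6% of cells, Fscn1 at 0 in NAM), and Xcr1 and Clec9a from 375 to 588 CPM. Fos was at 182 and 167 CPM in Ccr7 Fscn1 dendritic cells, and the part of this change in the Fos, Fosb and Nr4a1 calls of the class was not tested. In the other T cells Fos had 37 and 24 UMIs (-0.97, interval -1.77 to -0.19), a call that was lost without the top 5 cells (-0.21). In these 19 and 28 cells the mast cell or basophil markers went from 290.1 to 0 CPM, the Cd209a dendritic markers from 204 to 0 CPM and the NK markers from 43.0 to 491 CPM, and their part in the Fos, Fosb and Nr4a3 calls of the class was not tested.

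Fosb had an interval that included 0 in macrophages, with 189.8 and 192 CPM (0.02, interval -0.05 to 0.08). It was called higher in Xcr1 Clec9a dendritic cells with 32 and 62 UMIs (0.95), but that value was 0.04 without the top 5 cells. In NK cells 26 untreated UMIs from 67 cells stood against 1 UMI in 34 NAM cells (-3.47, interval -8.82 to -0.86). Of the 31 Fosb UMIs in the 19 untreated other T cells, 28 came from 1 cell, and the 28 NAM cells had 1 UMI (-5.30, interval -10.65 to -2.71). That value describes 1 cell and not the class. Atf3 was called in 0 of the 7 classes in which it had 20 or more UMIs, with 207 and 219 CPM in macrophages (0.09) and 208 and 269 CPM in monocytes (0.37, interval 0.16 to 0.57).

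Egr1 was at 95.2 CPM in untreated and 137 CPM in NAM macrophages, a log2 ratio of 0.52 (interval 0.44 to 0.61), under the size for a call. All 3 macrophage classes were above 0: cycling macrophages went from 64.8 to 141 CPM (1.12, interval 0.90 to 1.35), where Egr1 was called, Vcam1 Dnase1l3 cells from 91.1 to 130 CPM (0.52) and the other macrophages from 94.0 to 132 CPM (0.50). The Egr1 level of these classes was thus closer together in NAM than in the untreated library. With gates read on cells thinned to 3000 UMIs, which leaves 46 and 48 cycling cells, the cycling value was 0.22 and not called. In monocytes the interval included 0 (40.8 and 45.0 CPM, -0.35 to 0.64).

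Among the receptors, Nr4a2 was above 0 in 9 of 11 classes and called higher in 3. Its macrophage level went from 45.5 to 61.5 CPM (0.43, interval 0.31 to 0.55), monocytes from 130 to 196 CPM (0.59, interval 0.33 to 0.84), Cd209a dendritic cells from 183 to 345 CPM (58 and 121 UMIs, 0.91, interval 0.45 to 1.39) and NK cells from 49.2 to 104 CPM (20 and 18 UMIs, 1.08, interval 0.08 to 2.08). The NK call was lost without the top 5 cells (0.70). The monocyte value sits at the edge of the 1.5 fold limit (0.58 in log2) and fell short of it when ratios were centered on the median gene or under either other gate. CD8 T cells, where Nr4a2 was highest, had 402 and 445 CPM (0.15, interval -0.11 to 0.41).

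Nr4a3 leaned the opposite way, below 0 in 9 of 11 classes, but its interval left out 0 only in the 2 classes where it was called. It was called lower in Cd209a dendritic cells, from 284 to 168 CPM (90 and 59 UMIs, -0.76, interval -1.26 to -0.27), and in the other T cells (15 and 5 UMIs, -1.93). Both calls were lost under stricter gates, with values of -0.53 and 0.10. In macrophages Nr4a3 was at 33.0 and 30.7 CPM (-0.10, interval -0.26 to 0.05). Nr4a1 was at 190.5 and 205 CPM in macrophages (0.10), was called higher in Xcr1 Clec9a dendritic cells with 212 and 387 CPM (100 and 183 UMIs, 0.87, interval 0.51 to 1.24) and lower in Ccr7 Fscn1 dendritic cells with 24 and 5 UMIs from 12 and 14 cells (-1.97), a value that was -0.20 with gates read on thinned cells. Cd209a dendritic cells therefore had Nr4a2 called higher and Nr4a3 called lower.

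Counted by class, Vcam1 Dnase1l3 macrophages had 1 of 10 factors called lower (4.34% of genes) and 0 higher (1.44%). Cycling macrophages had 1 of 10 higher (1.17%) and 0 lower (3.19%), and the other macrophages had 0 in either direction (1.4% higher, 3.7% lower). In monocytes 1 of 10 was higher (3.31%) and 0 lower (5.77%). Xcr1 Clec9a dendritic cells had 3 of 10 higher (7.67%) and 0 lower (7.92%), Cd209a dendritic cells 1 higher (4.54%) and 3 lower (8.97%), and Ccr7 Fscn1 dendritic cells 0 higher (5.59%) and 1 of 7 lower (3.62%). CD8 T cells had 0 higher (3.63%) and 1 of 10 lower (3.94%), regulatory-like T cells 0 higher (3.38%) and 1 of 7 lower (5.07%), the other T cells 0 higher (9.51%) and 3 of 8 lower (6.89%), and NK cells 1 higher (2.33%) and 2 of 8 lower (4.91%). In all T cells together, Fosb (-1.36) and Jun (-0.90) were called lower, 2 of 10 against 4.81% of genes, and 0 were called higher (2.7%). The Fosb value rested on 71 and 35 UMIs, 28 of them from 1 untreated cell, and without that cell, left out after seeing the data, it was -0.66 (interval -1.35 to 0.0185) and no longer a call. The shares are over genes with 100 or more UMIs in the class, whereas factors were counted from 20. Each factor called in the other T cells and in NK cells had fewer than 100 UMIs, so none of them is among the genes of its share. With so few factors, a single call cannot be told apart from these background shares.

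The per-cell counts showed whether a difference came from more cells with a transcript or from more transcripts in each. Every cell was thinned to 3000 UMIs, and no cell had fewer. Macrophages without a Jun UMI made up 60.5% in untreated and 65.4% in NAM, while those with 4 or more went from 8.95% to 4.68%. The upper end of the Jun distribution thus differed more, in proportion, than the share of cells with any UMI, which was 39.5% (interval 37.4% to 41.8%) and 34.6% (32.6% to 36.7%), or 63.5% and 60.9% before thinning. In cycling macrophages the share with a Jun UMI was 37.7% (31.5% to 44.2%) and 44.1% (37.6% to 50.8%), or 73.3% and 83.0% before thinning, which runs against the CPM (288 and 214), so no order is read from it. Jund shifted over its whole range, with 85.5% and 81.7% of cells carrying a UMI and 36.9% and 25.9% carrying 4 or more. Fos moved upward, with 34.0% and 40.9% of macrophages at 4 or more, and Egr1 was detected in 19.7% and 24.3%.

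**Figure D4:**
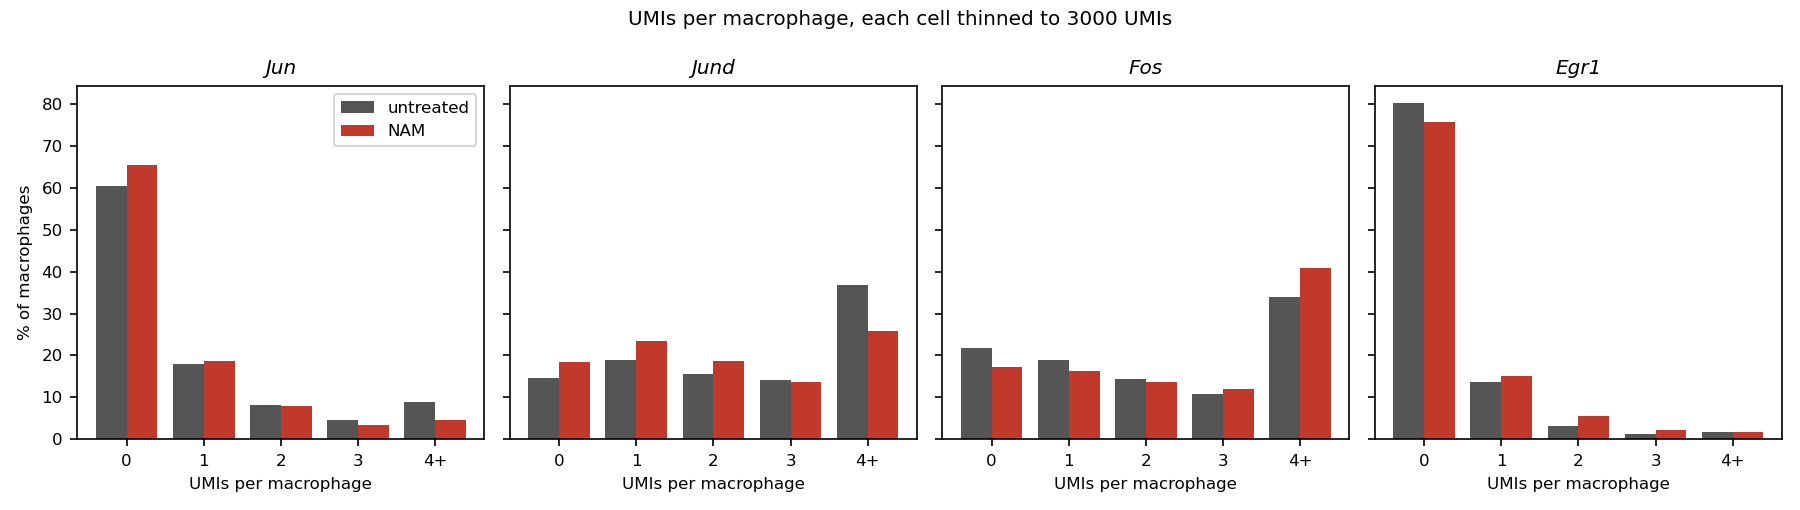
Share of macrophages (percent) with 0, 1, 2, 3 or 4 and more UMIs of Jun, Jund, Fos and Egr1, each cell thinned to 3000 UMIs, in the untreated (grey) and the NAM (red) library. The bar for 4 and more Jun UMIs goes from 8.95% to 4.68% and that of Jund from 36.9% to 25.9%.

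In T cells the factors were detected as follows after thinning. Junb was detected in 86.2% (untreated) and 92.1% (NAM), Jund in 93.6% and 91.7%, Nr4a2 in 35.1% and 43.6% and Jun in 16.0% and 11.6%. The T cells included 93 CD8 cells among 188 without NAM and 144 among 241 with it, and within the CD8 cells Nr4a2 was detected in 54.8% (interval 44.2% to 65.2%) and 58.3% (49.8% to 66.5%). Monocytes carried Nr4a2 in 24.5% (interval 19.3% to 30.3%) and 36.7% (31.1% to 42.6%), and Atf3 in 27.7% and 37.4%. Before thinning the monocyte shares of Nr4a2 were 43.4% and 48.6%.

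Within macrophages the factors were only loosely tied to each other from cell to cell. Across 1932 untreated macrophages the Spearman correlation of thinned counts had a median of 0.12 over the 45 pairs of factors, and across 2117 NAM macrophages 0.11. The highest was that of Junb with Nr4a1 in both libraries (0.29 and 0.28). Jun stood apart from Junb, with -0.05 and -0.04, and from Nr4a1, with -0.01 and -0.04. The same held for Nr4a2 (-0.04 and -0.07), Nr4a3 (-0.08 and -0.06) and Fosb (-0.04 and -0.01). Jun was closest to Fos (0.19 and 0.19) and Atf3 (0.18 and 0.17). In monocytes Jun with Atf3 was the highest pair in both libraries (0.37 and 0.28). These values describe cells of 1 library each, and sparse counts lower them.

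Genes with the most similar profile over the 11 classes in both libraries (22 points, 7380 genes compared by the Pearson correlation of log2(CPM + 10)) were then listed for each factor. Fos was closest to Tgfbi (0.96), a monocyte and macrophage matrix protein, then Evi2a and AF251705. Jun was closest to the kinase Syk (0.89), then Wfdc17 and the cytokine Il1b, and Junb to the chemokine receptor Ccr1 (0.73). Jund was closest to the factor Fli1 (0.88), followed by Ubac2 and the kinase Sik1. Egr1 was closest to Ch25h (0.84), Atf3 to Ccdc109b (0.93), Fosb to Ccdc134 (0.91) and Nr4a1 to Ift22 (0.81). Nr4a2 was closest to the leukocyte proteins Lsp1 (0.80) and Cytip, and Nr4a3 to the NF-kB subunit Rel (0.85). Among the factors, Fos and Atf3 had a correlation of 0.82, Fos and Fosb 0.79 and Egr1 and Nr4a3 -0.39.

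The wider pathway gave a setting for these values. Of 17 upstream kinases and factors (MAP kinases, ternary complex factors, Srf, Mef2 and Creb proteins), 0 were called in either direction in macrophages, with a median log2 ratio of -0.01 against -0.03 for all genes. Of 13 further AP-1 family genes, 1 was called higher, Batf2 (21.2 and 35.4 CPM, 0.74), against 1.01% of genes, and 1 lower, against 4.07%. The latter was Jdp2, a repressor that binds Jun (327 and 96 UMIs, 15.9 and 4.24 CPM, -1.91). In monocytes 2 of 12 counted, Batf2 (0.94) and Batf3 (15 and 47 UMIs, 1.63), were called higher, against 3.31% of genes. Of the Egr family, 3 of 5 genes had 20 or more UMIs in macrophages and 0 were called, with 45.5 and 67.3 CPM for Egr2 (0.57), which was just past the size for a call in cycling macrophages (0.59).

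Of 24 other immediate early genes, 23 had a symbol in the tables. In macrophages 0 were called higher and 1 lower, Rhob (173 and 99.7 CPM, -0.79), a small GTPase, their median was -0.07, and the interval lay above 0 for 8 and below 0 for 9. Dusp1 (775 and 872 CPM, 0.17) and Ier2 (268 and 314 CPM, 0.23) were slightly higher in NAM, and Zfp36 (610 and 535 CPM, -0.19) and Ier5 (341 and 278 CPM, -0.30) slightly lower. Of 23 counted in monocytes, 5 were called higher (Btg2, Klf2, Klf4, Myc and Per1), against 3.31% of all genes, and 2 lower (Nfkbiz and Gadd45b), against 5.77%. The Klf2 level there went from 159 to 272 CPM (0.78), whereas in CD8 T cells Klf2, a factor of resting and recirculating T cells, went from 398 to 205 CPM (-0.96). Of the T-cell receptor responsive genes, 6 of 10 had 20 or more UMIs in T cells and 0 were called. In macrophages the immediate early genes of this list thus lay on both sides of 0, with Rhob about as far down as Jun (-0.77).

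The heat shock genes, chaperones induced by unfolded protein and heat, were lower in NAM macrophages, as Jun was. In macrophages 5 of 10 were called lower (4.07% of all genes were) and 0 higher, the interval lay below 0 for all 10, and the median log2 ratio was -0.59. Hspa1a went from 1088 to 379 CPM (-1.52), Hspa1b from 150 to 25.5 CPM (-2.56), Hspb1 from 45.0 to 5.39 CPM (-3.06) and the cochaperone Dnajb1 from 137 to 80.9 CPM (-0.76). Hspa1a and Hspa1b are near-identical copies whose reads may be split between them. The summed list stood at 5602 CPM in untreated and 4279 CPM in NAM macrophages. Its median was below 0 in each of the 11 classes, from -0.58 in Cd209a dendritic cells to -0.09 in Xcr1 Clec9a dendritic cells. Single genes did not all follow the median. In Xcr1 Clec9a dendritic cells Hspa1a (-1.06) and Hspa1b (-1.75) were called lower but Hspd1 (0.70) higher. In Ccr7 Fscn1 dendritic cells Hspe1 (-0.94) was called lower, while Hspa1a (0.45) and Dnajb1 (0.40) had intervals that included 0.

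**Figure D5:**
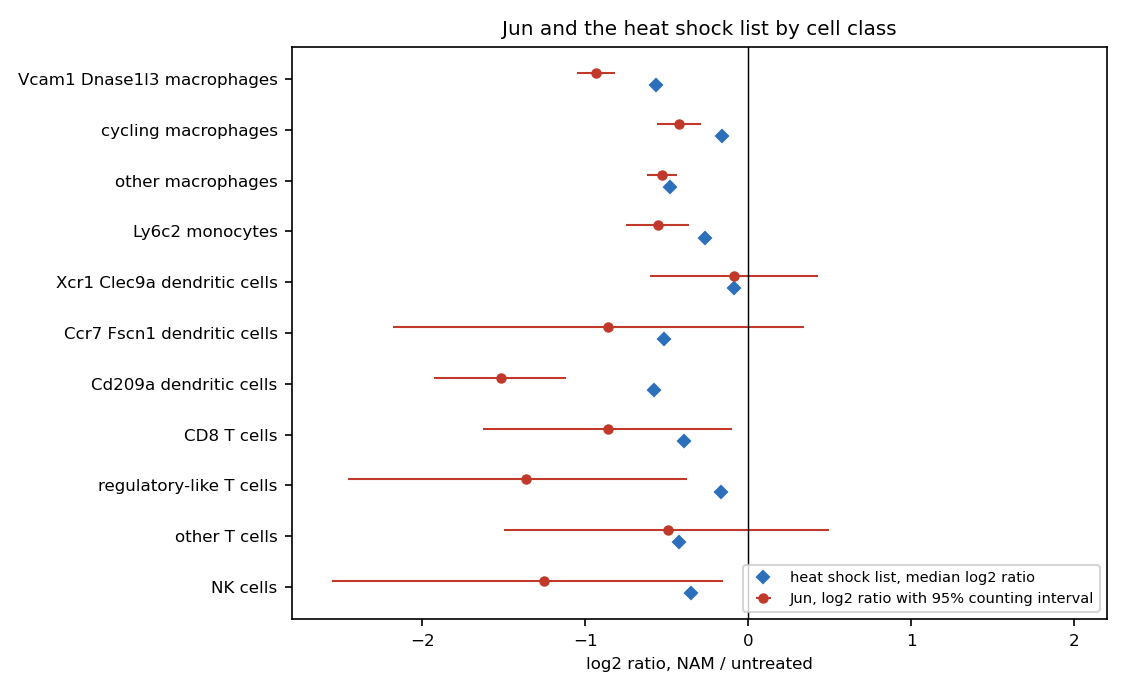
Log2 ratio of NAM over untreated by cell class for Jun (red circles, 95% counting interval) and the median log2 ratio of 10 heat shock genes (blue diamonds, genes with 20 or more UMIs). Both lie below 0 in all 11 classes.

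Over single macrophages, Jun counts had a Spearman correlation of 0.30 in untreated and 0.19 in NAM with the summed heat shock counts, while Junb had -0.10 and 0.03 and Jund 0.03 and 0.04. The part of heat shock or handling in the Jun difference was not tested. With 1 capture per group, an effect of NAM cannot be told apart from a difference between the captures. The gate genes also differed in macrophages, with Vcam1 at 212 and 184 CPM (-0.20) and, the other way, Dnase1l3 at 0.15, C1qa at 0.11, C1qb at 0.18 and C1qc at 0.16, each with an interval without 0, and none was called.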

How the data were processed

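CD45+ cells of TSA tumors were captured as 2 libraries (untreated and NAM, 1 each from 3 pooled mice). The authors made the deposited UMI counts with Cell Ranger 2.1.0 and mm10 from 10x 3′ libraries (chemistry version 2), and stated filters of 1000 genes, 3000 UMIs and 10% mitochondrial UMIs, which all 6198 cells met. The totals were 29161823 and 32090120 UMIs. The counts are not normalized.

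Cells were placed in classes by marker UMIs. Macrophages had 20 or more UMIs of C1qa, C1qb and C1qc and 3 or more of a set with Csf1r and Adgre1. T cells had 2 or more Cd3 UMIs, NK cells 1 or more of Ncr1, Xcr1 Clec9a dendritic cells 2 or more of these genes, Ccr7 Fscn1 cells 1 and 3, Cd209a cells 2 and monocytes 5 of Ly6c2 and Plac8. Cycling macrophages had 5 or more UMIs of Birc5, Ube2c, Top2a and Mki67, and Vcam1 Dnase1l3 cells 3 or more of these genes and more than of the genes of a further subset. Some gate genes, and that subset, are not reported here. CD8 and regulatory-like T cells needed 2 or more. Cells with markers of a second lineage were left without a class, and doublets were not removed otherwise. The thresholds were set after the marker counts were seen. The factors, classes and gene lists were chosen with earlier results of these data known.

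UMIs were summed per class and library and given as CPM. Intervals (95%) are exact Poisson for levels, Clopper-Pearson for shares of cells, and exact binomial, conditional on the summed UMIs, for ratios. They describe counting error alone. A call needed 1.5 fold and an interval without 0. Shares called were taken over genes with 100 or more UMIs in the class, and factors and list genes were counted from 20 UMIs. Named genes were the 10 factors, the called list genes of largest ratio and the 3 genes of most similar profile with 500 or more UMIs, beside a few list genes given for scale after their values were seen. The study compared single cells as replicates, which was not done here. The ratio and interval functions were tested on simulated counts. Gene positions came from GENCODE vM21 and promoters from RefSeq. Python 3.11.15, NumPy 2.4.6, SciPy 1.17.1, pandas and matplotlib were used.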

Additional observations from a re-analysis of the deposited data

Results flagged for a closer look

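Fos, Fosb and Nr4a1 were each called higher in NAM in 1 class and lower in 1 other, or in 2 others for Fosb. These differences between classes were not tested. Fos had a log2 ratio of NAM over untreated of 1.12 in Xcr1 Clec9a dendritic cells and -0.97 in the other T cells. Fosb stood at 0.95 in Xcr1 Clec9a dendritic cells, -5.30 in the other T cells and -3.47 in NK cells. Nr4a1 stood at 0.87 in Xcr1 Clec9a dendritic cells and -1.97 in Ccr7 Fscn1 dendritic cells. The classes are small, with 30 and 32 Xcr1 Clec9a dendritic cells, 12 and 14 Ccr7 Fscn1 dendritic cells, 19 and 28 other T cells and 67 and 34 NK cells. Of the 31 untreated Fosb UMIs of the other T cells, 28 came from 1 cell. Without the 5 cells richest in the gene, Fosb in Xcr1 Clec9a dendritic cells was 0.04 and Fos in the other T cells -0.21, neither called. Nr4a1 in Ccr7 Fscn1 dendritic cells was -0.20 and not called with gates read on thinned cells.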

How the results depend on the processing

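No paired analysis was possible because each group is 1 library, and for the same reason no replicate could be left out. Of the 19 pairs of factor and class called, 12 were called alike under stricter gates, 11 with gates read on cells thinned to 3000 UMIs, 18 with ratios centered on the median gene, 15 with each cell weighted equally, 11 without the 5 cells with most UMIs of the gene and 16 without the 2.5% deepest cells. These counts of calls made alike set no UMI minimum under the alternative, whereas the counts that follow need 20 or more UMIs there. The 7 calls higher became 14 with thinned gates, 13 without the 5 top cells and 20 under a fold limit lower than 1.5, and the 12 calls lower became 4 without the 5 top cells and 19 under that lower limit. In macrophages Jun was -0.84 under stricter gates, -0.92 with thinned gates and -0.68 with equal weights, called each time, and Jund was -0.43 with thinned gates, -0.34 centered and -0.44 with equal weights. Fos was 0.24 under stricter gates, 0.25 with thinned gates, 0.24 centered, 0.17 with equal weights and 0.17 without the deepest cells. Junb was 0.0787 with thinned gates, 0.16 centered, 0.0766 with equal weights and 0.0998 without the deepest cells. Egr1 was 0.36 with thinned gates and 0.42 with equal weights, Fosb 0.12 with thinned gates, and Nr4a3 0.0574 under stricter gates, where the sign changed. Nr4a3 in the other T cells reversed to 0.10 under stricter gates. The cause was not tested in any of these. The alternatives without shared barcodes and without hemoglobin-rich cells, and that of Fosb without 1 cell, were added after seeing the data.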
